A study of Homo sapiens with 9 samples.

Results

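UHRF1 was depleted in RKO cells, a colorectal cancer cell line, with either of a pair of small interfering RNAs, siUHRF1-1 and siUHRF1-2, and the expression arrays of one siRNA were set against those of the other. The comparison used 4 of the 9 arrays of the series, which were chosen by their titles: siUHRF1-1, siUHRF1-2, siUHRF1-1 with TSA and siUHRF1-2 with TSA. The 4 arrays of the control siRNA, siCONT, came as replicates 1 and 2 without and with TSA, and their replicate differences served as the yardstick. All 8 cultures carried an siRNA for 72 h and then received 300 nM trichostatin A (TSA), an inhibitor of histone deacetylases, or a mock treatment for 24 h. Each siUHRF1 siRNA thus had 1 array without TSA and 1 with TSA, so that the only repeat of the siRNA difference was the pair with the other drug treatment. The labels do not say whether the replicates of siCONT came from separate cultures, so p-values measure the spread between these arrays, which may be technical.

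UHRF1 is a nuclear protein that binds hemimethylated DNA behind the replication fork and recruits the maintenance methyltransferase DNMT1, so that its loss lowers DNA methylation as cells divide. A small interfering RNA is a short duplex, of which the guide strand is loaded into an Argonaute protein and directs the cleavage of a transcript that it matches along its length. A guide can also lower other transcripts that it matches in part, through its seed, and for this reason depletion experiments usually carry more than a single siRNA against the same gene. No match between the siRNAs and any transcript was tested here.

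Values are log2 signals minus the 75th percentile of the same array, so that 0 is the level below which 75% of the probes of an array lie. The arrays stood close together in quality, with a 75th percentile signal of 245 to 338 and 46.8% to 49.6% of the spots well above background. All 8 lay on 1 slide read in 1 scan. The siUHRF1-1 arrays occupied column 3 of the slide and the siUHRF1-2 arrays column 4, so that column and siRNA cannot be told apart, and the mock arrays lay in row 1 and the TSA arrays in row 2. Of 16 markers of intestinal epithelium on the array, 9 were above background on at least 1 array and 5 on all 8, among them KRT8, KRT18, CDX1, CDX2 and MUC2, whereas VIL1, CEACAM5 and FABP1 were above background on none. Of 19 markers of blood, vessel, fibroblast, liver and glial cells, 11 were above background somewhere and 3, namely CD68, CDH5 and COL1A1, on all 8, and CD3E, HBB, PECAM1, ALB and GFAP were above background on none.

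UHRF1 itself was measured by a pair of probes on chromosome 19 (hg19). The probe at chr19:4962065-4962124 read 2.69 on both siCONT arrays without TSA, 0.36 on the siUHRF1-1 array and 0.08 on the siUHRF1-2 array. With TSA the same probe read 2.87 and 2.86 on the siCONT arrays, -0.34 on the siUHRF1-1 array and -0.62 on the siUHRF1-2 array. Both siRNAs thus lowered the target on every array, and siUHRF1-2 left a slightly lower signal in both pairs. The difference was 0.29 without TSA and 0.28 with TSA on the log2 scale, with a mean of 0.28 ± 0.05 (SE), or 1.22-fold (adjusted p = 0.0421). The dimmer probe at chr19:4960895-4960954 differed by -0.19 without TSA and by 0.41 with TSA, so that it gave no shared direction (mean 0.12 ± 0.15, SE, adjusted p = 0.634). Against the siCONT arrays, both probes fell under both siRNAs, with mean differences of -2.77 and -3.05 at the brighter probe and of -2.54 and -2.66 at the dimmer one for siUHRF1-1 and siUHRF1-2, and with adjusted p between 0.000309 and 0.00366.

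Which genes differed between the siRNAs in the same direction in both pairs was asked of 24466 probes that were well above background on at least 2 of the 8 arrays. At a Benjamini-Hochberg adjusted p below 0.05, 2963 probes differed between siUHRF1-1 and siUHRF1-2 (12.1% of those tested). Of these, 1219 were higher with siUHRF1-1 (4.98%) and 1744 were higher with siUHRF1-2 (7.13%). The adjusted p went no lower than 0.0104. All 2963 had the same sign in both pairs, which the fit requires in practice because it counts the departure of the pairs from each other as error; of all the probes tested, 68% had the same sign. The split between the directions depended on the scaling, with 48.9% of the calls higher with siUHRF1-1 after quantile normalization and 93.6% after scaling on the spike-in probes, against 41.1% here.

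These calls rest on a spread estimated with 3 residual degrees of freedom, of which 2 come from the siCONT replicates, and the call was lost for every probe when any siCONT array was left out, when the siCONT replicates were paired by their number in a replicate block, when only the 4 siUHRF1 arrays were fitted, or when dim probes were not filtered out (0 probes called in each, against 6859 and 4419 at an unadjusted p below 0.05 with the block and with the 4 arrays). With normexp background correction 10 probes were called. For this reason the genes below are described by their level on every array and by how their differences in both pairs compare with those between the siCONT replicates.

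By size alone the siRNAs stood further apart than the siCONT replicates. The median absolute difference between siUHRF1-1 and siUHRF1-2 was 0.27 without TSA and 0.20 with TSA, whereas that between siCONT replicates was 0.07 and 0.08. A difference over 2-fold in the same direction in both pairs was found for 209 probes between the siRNAs (0.854%), of which 99 were higher with siUHRF1-1 and 110 with siUHRF1-2, and for 52 probes between the siCONT replicates (0.213%). Among the 20772 probes above background on all 8 arrays these counts were 89 and 9. Over all probes tested the differences without and with TSA correlated with Pearson's r = 0.43 (Spearman's rho 0.46) between the siRNAs and with r = 0.05 (rho 0.05) between the siCONT replicates. These correlations are across 24466 probes of the same arrays, which are not independent replicates. The siCONT arrays carry replicate numbers in both drug arms, and same-numbered arrays shared a column of the slide. No label says that the numbers pair cultures without TSA with those with TSA. If they do not, little agreement between the siCONT differences would be likely at any spread. This limits their correlation and same-direction counts as a yardstick. In the replicate-block fit, no probe was called between siCONT replicates 1 and 2, and 867 (3.54%) had an unadjusted p below 0.05.

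**Figure D1:**
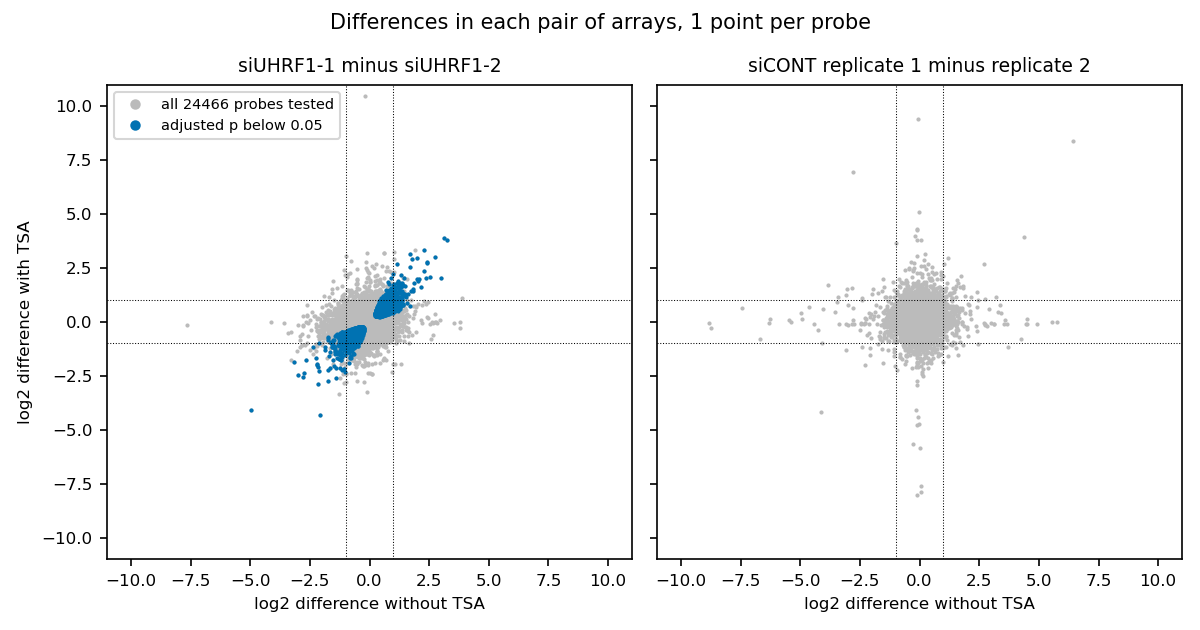
Difference in log2 signal in the pair of arrays with TSA (vertical axis) against that in the pair without TSA (horizontal axis) for each of 24466 probes, between the siRNAs (left) and between the siCONT replicates (right); blue points passed the test and dotted lines mark 2-fold. The siRNA differences stretch along the diagonal (r = 0.43). The siCONT differences lie around 0 and along the axes (r = 0.05), where only 1 pair of arrays differed. The siCONT arrays are matched here by replicate number, and no label says that the numbers pair the cultures.

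The largest excess in siUHRF1-1 belonged to OSTC, which encodes a subunit of the oligosaccharyltransferase complex that attaches N-glycans to new proteins in the endoplasmic reticulum. OSTC read 2.81 and 2.85 on the siCONT arrays without TSA, 2.93 with siUHRF1-1 and -0.30 with siUHRF1-2, and with TSA it read 2.77 and 2.75 on siCONT, 2.70 with siUHRF1-1 and -1.10 with siUHRF1-2. The siUHRF1-1 arrays lay at the level of siCONT and the siUHRF1-2 arrays far below it. The difference between the siRNAs was 3.52 ± 0.14 (SE) on the log2 scale, or 11.5-fold (adjusted p = 0.0150). Probes for its relatives OSTCP2 (2.89 ± 0.08, SE, adjusted p = 0.0104) and OSTCP1 (2.81 ± 0.25, SE, adjusted p = 0.0205) showed the same pattern. These loci are copies related to OSTC, and a probe for one may take up transcripts of another, so that the 3 values are not independent. The probe letters for OSTC and OSTCP2 are shown as deposited, and the longest run of bases common to both was 5. Probes were compared only with each other. Whether either takes up transcripts of the other locus was not tested.
OSTC (chr4:109578716-109578775, hg19, plus strand): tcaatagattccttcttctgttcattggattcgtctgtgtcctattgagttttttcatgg
OSTCP2 (chr1:27312672-27312731, hg19, minus strand): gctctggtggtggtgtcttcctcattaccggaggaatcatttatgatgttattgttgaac

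Of the 10 genes with the largest excess in siUHRF1-1, 8 shared this shape, with siUHRF1-1 at the control level and siUHRF1-2 below it. A siRNA counted as near siCONT when it lay within 0.5 log2 units of it in both drug arms. These 8 counted OSTC, OSTCP2 and OSTCP1 separately, and NSA2 at the dimmer of its probes. LIPA, the lysosomal acid lipase, read 2.62 and 2.59 on siCONT, 2.75 with siUHRF1-1 and 1.41 with siUHRF1-2 without TSA, and 3.31 and 3.30 on siCONT, 3.31 with siUHRF1-1 and 1.14 with siUHRF1-2 with TSA. GSTM3, a glutathione transferase, read 4.73 on both siCONT arrays, 4.48 with siUHRF1-1 and 3.02 with siUHRF1-2 without TSA, and 5.24 and 5.21, 4.90 and 2.88 in the same order with TSA. In both genes siUHRF1-2 alone stood apart, and the gap was wider with TSA. ANXA7, a calcium-dependent membrane-binding protein, differed by 1.35 and 1.79 in the pairs at the brighter of its probes and by 1.48 and 1.65 at the dimmer one. BZW1, a regulator of start codon choice, differed by 1.87 without TSA and by 1.80 with TSA at its brightest probe. Of its other probes, one was called (1.98) and the dimmest was not (0.66 ± 0.17, SE, adjusted p = 0.0707).

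NSA2, a factor of large ribosomal subunit assembly, did not behave alike at its probes. The probe at chr5:74065128-74065187 (hg19) read 3.63 with siUHRF1-1 and 1.36 with siUHRF1-2 without TSA, and 3.50 and 1.15 with TSA, a difference of 2.31 ± 0.06 (SE, adjusted p = 0.0104). The brighter probe at chr5:74066571-74066630 differed by 0.04 ± 0.06 (SE, adjusted p = 0.674). The remaining pair of the 10 were GASK1B, which encodes a Golgi-associated protein, and SPRR2E, a protein of the cornified envelope of squamous epithelium. GASK1B lay above siCONT with siUHRF1-1, by 1.17 without TSA and 0.90 with TSA, and below it with siUHRF1-2, by -0.58 and -0.51. SPRR2E with siUHRF1-2 lay at -1.19 from siCONT without TSA and at -0.42 with TSA, and with siUHRF1-1 at -0.18 and 1.79, so that its difference arose from a different siRNA in each pair.

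Among the 10 genes with the largest excess in siUHRF1-2, 4 were near siCONT with siUHRF1-2 and below it with siUHRF1-1, and 2 were near siCONT with siUHRF1-1 and above it with siUHRF1-2. PRKCZ, which encodes an atypical protein kinase C, read -2.24 and -2.46 on siCONT, -2.79 with siUHRF1-1 and 2.19 with siUHRF1-2 without TSA, and -2.21 and -2.46, -2.08 and 1.99 in the same order with TSA. The siUHRF1-2 arrays were the only ones raised, and the difference of -4.52 ± 0.24 (SE), or 23.0-fold, was the largest of those called among the genes named here (adjusted p = 0.0166). It was seen at chr1:2002740-2002799 (hg19) only, since the brighter PRKCZ probe at chr1:2116703-2116762 read between 4.58 and 4.99 on all 8 arrays and differed by -0.01 ± 0.08 (SE, adjusted p = 0.963). PCP4, a calmodulin-binding peptide, read -0.49 and -0.35 with siUHRF1-2 against -1.95 and -1.77 with siUHRF1-1, and its siCONT arrays lay between -2.06 and -1.65.

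Genes lowered by siUHRF1-1 alone included TSPAN12, a tetraspanin that works with the Norrin receptor, CCDC34, the divergent transcript ATP13A3-DT and TMBIM6. TMBIM6, an inhibitor of cell death in the membrane of the endoplasmic reticulum, read 6.64 and 6.57 on siCONT, 5.37 with siUHRF1-1 and 6.58 with siUHRF1-2 without TSA, and 6.63 and 6.60, 4.95 and 6.50 in the same order with TSA. Its dimmer probe moved the same way by less (-0.55 against -1.39). EIF4EBP2, a repressor of cap-dependent translation, lay below siCONT with siUHRF1-1, by -1.10 and -1.76, and above it with siUHRF1-2, by 0.57 and 0.40, and its pair of probes gave differences of -1.91 and -1.78. ADGRF1, an adhesion receptor, and FLJ37644 lay above siCONT with both siRNAs and further above it with siUHRF1-2, and CCDC92 was raised with siUHRF1-2 and on either side of siCONT with siUHRF1-1. In each of these 20 genes, the siRNAs differed by at least 1.00 in both pairs and the siCONT replicates by at most 0.48. The selection favored this contrast, because the test counts siCONT replicate differences as error and the genes were ranked by siRNA difference.

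**Figure D2:**
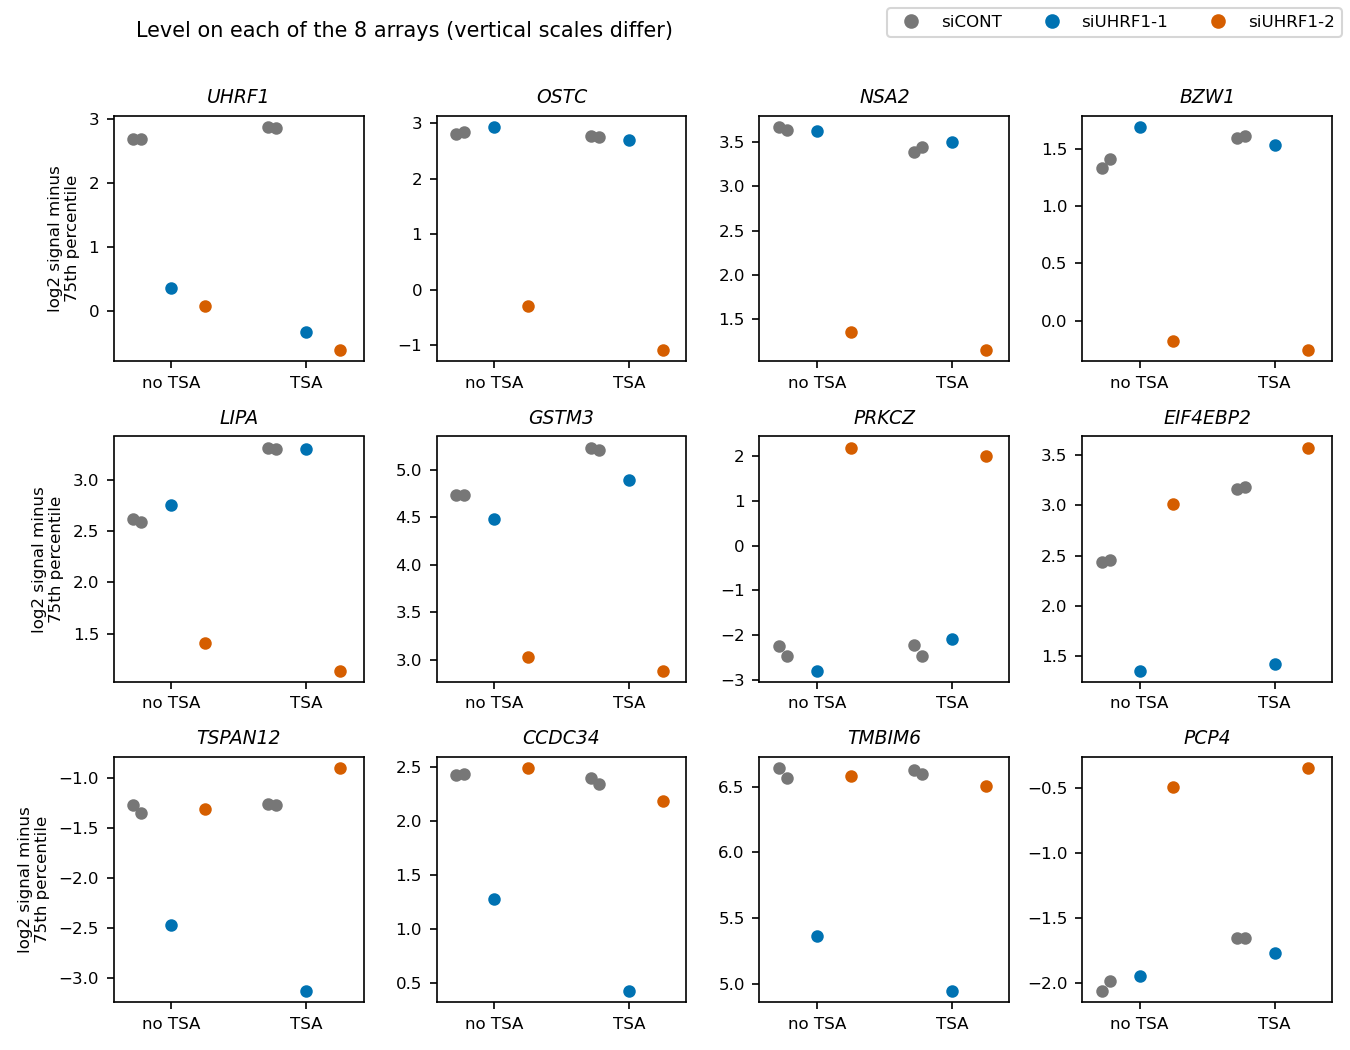
Log2 signal minus the 75th percentile of the array on each of the 8 arrays for 12 genes, with siCONT in grey (2 arrays in each drug arm), siUHRF1-1 in blue and siUHRF1-2 in orange. UHRF1 is low with both siRNAs. OSTC, NSA2 (dimmer probe), BZW1, LIPA and GSTM3 are low with siUHRF1-2 only, and TSPAN12, CCDC34 and TMBIM6 with siUHRF1-1 only. PRKCZ (dimmer probe) and PCP4 are high with siUHRF1-2 only.

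**Figure D3:**
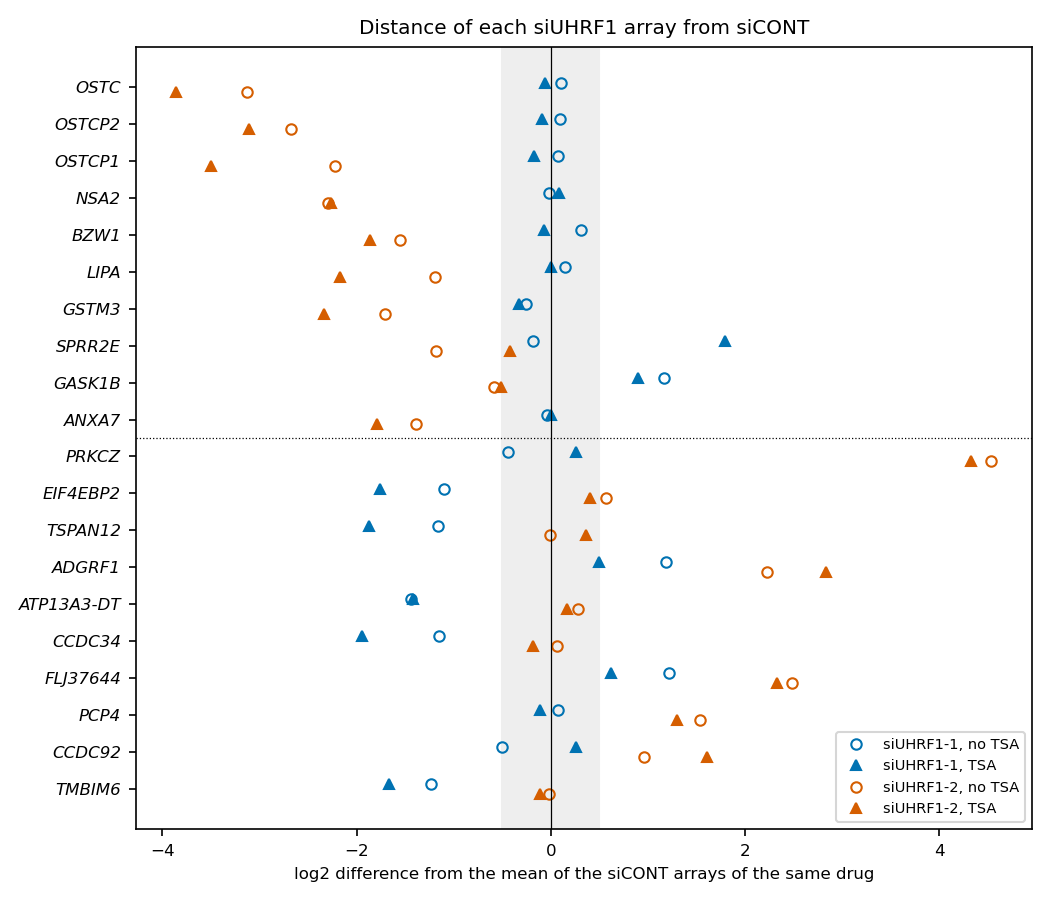
Log2 difference of each siUHRF1 array from the mean of the siCONT arrays with the same drug for the 10 genes with the largest excess in siUHRF1-1 (above the dotted line) and the 10 with the largest excess in siUHRF1-2 (below it); open circles are without TSA, triangles with TSA, and the grey band marks 0.5 on either side of siCONT. In 8 of the upper 10 genes, with OSTC, OSTCP2 and OSTCP1 counted separately, the siUHRF1-1 points lie in the band. The siUHRF1-2 points of these genes lie to its left, as for OSTC at -3.13 and -3.86.

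The same question of which siRNA stood apart from siCONT was put to all the probes called. Of the 1219 probes higher with siUHRF1-1, 355 (29.1%) were more than 0.5 below siCONT with siUHRF1-2 and within 0.5 of it with siUHRF1-1, 113 (9.27%) were above siCONT with siUHRF1-1 alone, and 706 (57.9%) lay within 0.5 with both siRNAs. Of the 1744 probes higher with siUHRF1-2, 347 (19.9%) were below siCONT with siUHRF1-1 alone, 257 (14.7%) were above it with siUHRF1-2 alone, and 1075 (61.6%) lay within 0.5 with both siRNAs. At a limit of 1 log2 unit, 74 of the probes higher with siUHRF1-1 were below siCONT with siUHRF1-2 alone and 35 above it with siUHRF1-1 alone, and of those higher with siUHRF1-2, 47 were below it with siUHRF1-1 alone and 63 above it with siUHRF1-2 alone. Set against siCONT in the same fit, siUHRF1-1 differed at 3061 probes (12.5%; 1559 up and 1502 down) and siUHRF1-2 at 3844 (15.7%; 2334 up and 1510 down). These comparisons share the siCONT arrays, and their values are given side by side only.

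Several genes were above background with one siRNA and not well above background on either array of the other, so that their differences are lower bounds. Higher with siUHRF1-1 were NRG1, a ligand of ERBB receptors (at least 2.78-fold), TNC, the matrix protein tenascin C (at least 2.57-fold), DPH6 (at least 2.51-fold), SNAI2, a repressor of epithelial genes (at least 2.39-fold), and INTS4 (at least 2.10-fold, at 1 of 8 tested probes, of which the brightest differed by -0.07 and did not pass the test). NRG1 read -3.37 and -2.37 with siUHRF1-1 and was not well above background on any of the other 6 arrays. NRG1, SNAI2 and AF495723 met the filter of at least 2 of 8 arrays only through the arrays of the siRNA with the higher level. The filter thus favored their difference, and their calls add no separate support for it. Higher with siUHRF1-2 were AKR1B15 (at least 3.47-fold), AF495723 (at least 2.00-fold), COX18, an assembly factor of cytochrome oxidase (at least 1.90-fold), KLHL15 (at least 1.87-fold) and LYG2 (at least 1.85-fold). AKR1B15 read -1.71 and -1.77 on the siCONT arrays with TSA and -1.47 with siUHRF1-2 and TSA, against -5.80 with siUHRF1-1 and TSA. Its close relative AKR1B10, an aldo-keto reductase, followed the same order, with -0.58 and -0.64 on siCONT, -3.38 with siUHRF1-1 and -0.51 with siUHRF1-2 under TSA, and differed by -2.52 ± 0.21 (SE, adjusted p = 0.0205). A probe for one of these relatives may also take up the other.

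For the functions, each gene was represented by the brightest of its tested probes, and 18372 genes entered, of which 911 (4.96%) were higher with siUHRF1-1 and 1407 (7.66%) with siUHRF1-2. The median difference over all genes was -0.14 without TSA and -0.03 with TSA, and it became 0.33 and 0.08 when the spike-in probes set the scale of each array, so that the medians of lists are read relative to these. Spike-in scaling shifts every value of an array by the same amount. It therefore leaves the distance of a list from all genes unchanged. The members and medians of 26 lists are described, and no list was tested as a whole.

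Histone genes stood furthest from the rest. Clustered histone genes are transcribed in S phase to package new DNA, and the variants among them are made throughout the cycle. Of 31 histone genes tested, 20 were higher with siUHRF1-2 (64.5%, against 7.66% of all genes) and none with siUHRF1-1. The differences of the 20 were -0.32 to -1.04 on the log2 scale for siUHRF1-1 minus siUHRF1-2. In both pairs, 27 were lower with siUHRF1-1. The median was -0.57 without TSA and -0.38 with TSA, and it stayed negative under each other scaling. The values nearest 0 came under spike-in scaling (-0.11 and -0.27), where all genes had 0.33 and 0.08. H4C1 read 2.63 and 2.58 on siCONT, 1.86 with siUHRF1-1 and 2.73 with siUHRF1-2 without TSA, and 1.98 and 1.93, 1.24 and 1.91 in the same order with TSA. Its siUHRF1-1 arrays were the low ones in both drug arms. H1-1, the histone gene with the widest difference (-1.04), lay above siCONT with both siRNAs and was well above background on 4 of the 8 arrays. H3C10 differed by -0.59 and -0.58 in the pairs and H4C8 by -0.66 and -0.55. The dimmer H3C10 probe differed by -0.03 and -0.44 and did not pass the test, nor did the dimmer H4C1 probe (mean -0.76). Relative to siCONT the median of the list was -0.34 with siUHRF1-1 and 0.21 with siUHRF1-2 without TSA, and -0.05 and 0.20 with TSA. The variants MACROH2A1 (-0.01) and H3-3B (-0.06) did not pass the test. Many histone genes are near-identical in sequence, and their probes may share transcripts.

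**Figure D4:**
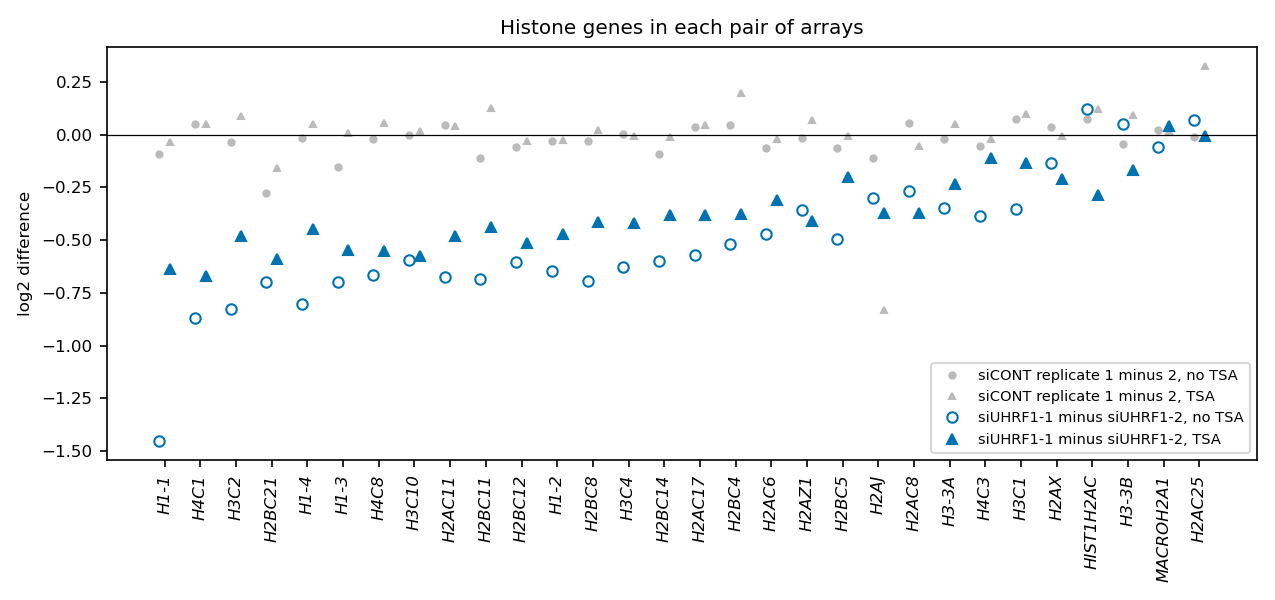
Log2 difference between the siRNAs (blue) and between the siCONT replicates (grey) without TSA (circles) and with TSA (triangles) for 30 of the 31 histone genes tested, ordered by the mean siRNA difference. Of these, 26 lie below 0 in both siRNA pairs, with H1-1 lowest at -1.45 without TSA, whereas most siCONT differences lie near 0.

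Genes of DNA replication and mitosis moved less evenly. Of 42 S phase genes, 5 were higher with siUHRF1-2 (11.9%, against 7.66% of all genes) and 1 with siUHRF1-1 (2.38%, against 4.96%). Among the 5 were CLSPN, a checkpoint adaptor (-0.54), NASP, a histone chaperone (-0.42), and CHAF1B, a subunit of the chromatin assembly factor (-0.43). A NASP probe of similar signal differed by -0.39 without TSA and by 0.08 with TSA, and did not pass the test (mean -0.15, adjusted p = 0.423). The dimmest NASP probe differed by -0.05 and did not pass either. The S phase median was -0.11 without TSA and -0.32 with TSA. The former became 0.01 after quantile normalization, against -0.05 for all genes. With spike-in scaling it became 0.36, against 0.33 for all genes. Of 54 G2/M genes, 8 were higher with siUHRF1-2 (14.8%) and 3 with siUHRF1-1 (5.56%). The 8 included CBX5, which encodes heterochromatin protein HP1 alpha (-0.56), and the 3 included ANLN, a scaffold of the cleavage furrow (1.03). TMPO, a lamina-associated protein, gave opposite calls at its probes (-1.27 at the brighter one and 1.06 at the other). Of 952 genes with more than 1 probe tested and at least 1 called, 715 had all probes on the same side and 8 had probes called in opposite directions.

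Of 26 genes of the AP-1 and early growth response, which are switched on within minutes by growth factor and stress signals, 6 were higher with siUHRF1-1 and 2 with siUHRF1-2. These were 23.1% and 7.69% of the list, against 4.96% and 7.66% of all genes. FOS, a subunit of AP-1, read -0.66 and -0.54 on siCONT, 0.11 with siUHRF1-1 and -0.83 with siUHRF1-2 without TSA, and -0.74 and -0.62, -0.06 and -1.14 in the same order with TSA. The siCONT arrays thus lay between those of the siRNAs in both drug arms, and the difference was 1.01 ± 0.08 (SE, adjusted p = 0.0205). EGR2, a zinc finger factor, lay above siCONT with both siRNAs and further with siUHRF1-1, with a difference of 0.97. EGR1 (0.56), MYC (0.36), DUSP5 (0.49) and SPRED1 (0.49) were also higher with siUHRF1-1, and FOSL2 (-0.58) and IER3 (-0.44) were lower. The dimmer MYC probe (0.03) did not pass the test. JUN (0.57, adjusted p = 0.0509) and FOSB (0.65, adjusted p = 0.0509) narrowly missed the threshold. The list's median was 0.28 without TSA and 0.29 with TSA, and it stayed above 0 under each scaling.

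Of 31 lysosomal and autophagy genes, 6 were higher with siUHRF1-1 (19.35%, against 4.96% of all genes) and 1 with siUHRF1-2 (3.23%, against 7.66%). LAMP1, a lysosomal membrane glycoprotein, read 5.59 and 5.62 on siCONT, 5.63 with siUHRF1-1 and 4.99 with siUHRF1-2 without TSA, and 5.75 and 5.79, 5.89 and 4.92 in the same order with TSA. Its siUHRF1-2 arrays were the low ones in both drug arms, and the difference was 0.80 ± 0.10 (SE, adjusted p = 0.0240). NPC1, which exports cholesterol from lysosomes, differed by 0.70, whereas NPC2, its partner in cholesterol export, differed by -0.49. The list's median was 0.06 without TSA and 0.07 with TSA, against -0.14 and -0.03 for all genes. Of 41 genes of oxidative phosphorylation, 4 were higher with siUHRF1-1 (9.76%, against 4.96% of all genes) and none with siUHRF1-2. The 4 were the ATP synthase subunits ATP5F1B (0.63) and ATP5F1C (0.40) and the succinate dehydrogenase subunits SDHD (0.56) and SDHB (0.31). The median over all 41 was -0.21 without TSA and 0.01 with TSA. In both pairs, 18 of the 41 were lower with siUHRF1-1 and 9 were higher.

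Genes of secreted matrix and signaling differed in both directions. Of 23 TGF-beta targets and matrix genes, 2 were higher with siUHRF1-1 (8.70%, against 4.96% of all genes) and 6 with siUHRF1-2 (26.1%, against 7.66%). TGFBI (0.89), a secreted matrix protein, was among the 2. Among the 6 were the collagens COL1A1 (-1.01) and COL4A2 (-0.83), SMAD6 (-0.93), an inhibitor of BMP signaling, and ID1 (-0.68), a BMP target. Of 12 WNT targets and antagonists, RNF43 (-0.85), SP5 (-0.57) and NKD1 (-0.52) were higher with siUHRF1-2 (25%) and MYC with siUHRF1-1 (8.33%). Among 16 genes of the epithelial-mesenchymal transition, SNAI2 was higher with siUHRF1-1 (6.25%), and S100A4 (-0.43) and ESRP2 (-0.37) with siUHRF1-2 (12.5%). SNAI2 entered the test only through its siUHRF1-1 arrays.

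Among 25 genes of the BCL2 family and death receptors, 1 was higher with siUHRF1-1 (4%, against 4.96% of all genes). With siUHRF1-2, 5 were higher (20%, against 7.66%). These 5 were BMF (-0.79), BCL2L11 (-0.77), BAX (-0.33), BID (-0.31) and BCL2A1 (-0.50), of which the last opposes cell death and the others promote it. BCL2L11 read 1.75 and 1.77 on siCONT, 1.19 with siUHRF1-1 and 1.79 with siUHRF1-2 without TSA, and 1.67 and 1.58, 0.88 and 1.82 in the same order with TSA, so that siUHRF1-1 alone stood apart at this probe. Of its dimmer probes, one was called (-0.72) and the dimmest was not (0.10). Of 28 p53 targets, 3 were higher with each siRNA: CCNG1 (0.87), PLK2 (0.70) and TIGAR (0.62) with siUHRF1-1, and MDM2 (-0.64), POLH (-0.35) and BAX with siUHRF1-2.

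Metabolic lists held calls in both directions. Of 33 genes of cholesterol and fatty acid synthesis, INSIG1, a sterol sensor, was higher with siUHRF1-1 (0.81), and FADS2 (-1.09), a fatty acid desaturase, DHCR7 (-0.52), FASN (-0.42), EBP (-0.39) and MVK (-0.31) were higher with siUHRF1-2. These were 3.03% and 15.15% of the list, against 4.96% and 7.66% of all genes. The dimmer FADS2 probe (-0.33) did not pass the test. FASN, the fatty acid synthase, lay just under the threshold. Of 33 genes of glycolysis and the hypoxia response, 5 were higher with siUHRF1-2 (15.15%) and 2 with siUHRF1-1 (6.06%). The 5 included PGAM1 (-0.52) and the glucose transporter SLC2A1 (-0.48), and the 2 included TPI1 (0.38). The dimmer PGAM1 probe (-0.305) did not pass the test. Of 23 NRF2 targets, 2 were higher with each siRNA (8.70%, against 4.96% and 7.66% of all genes). AKR1B10 (described above) and PIR (-0.41) were on one side and UGDH (0.49) and TXNRD1 (0.42) on the other. Ribosomal protein genes had a median of -0.36 without TSA and -0.15 with TSA. Of 45, 4 were higher with siUHRF1-2 (8.89%, near the 7.66% of all genes): RPL34, RPL4, RPL37 and RPS6. A dimmer RPS6 probe (-0.27) did not pass the test. After quantile normalization the median became 0.02 and -0.01, against -0.05 and -0.02 for all genes. With spike-in scaling it became 0.11 and -0.04, against 0.33 and 0.08 for all genes.

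Of 27 genes of DNA methylation and its readers, 2 were higher with each siRNA (7.41%, against 4.96% and 7.66% of all genes): HDAC1, a histone deacetylase (0.36), and SUV39H2, a histone methyltransferase (0.29), with siUHRF1-1, and CBX5 (-0.56) and TET1, which oxidizes methylcytosine (-0.52), with siUHRF1-2. DNMT1 differed by -0.04 ± 0.06 (SE, adjusted p = 0.646) and DNMT3B by -0.41 ± 0.12 (SE, adjusted p = 0.0955). Of the 16 genes of the RNA interference machinery, TNRC6A (0.35) and AGO4 (0.43) were higher with siUHRF1-1 (12.5%, against 4.96% of all genes). Cancer-testis antigens, germ cell genes that DNA methylation silences elsewhere, had a median of -0.47 without TSA and -0.08 with TSA, over 21 genes tested of 31 on the array. Of these, 14 were lower with siUHRF1-1 in both pairs, and SOHLH2 (0.46), above background on 1 array of each siRNA, passed the test in the opposite direction. With spike-in scaling the median became -0.01 without TSA and 0.03 with TSA, against 0.33 and 0.08 for all genes. After quantile normalization it was -0.21 and -0.10, against -0.05 and -0.02 for all genes. Their median relative to siCONT was 1.00 with siUHRF1-1 and 1.61 with siUHRF1-2 without TSA, and 3.89 and 4.26 with TSA. Among 8 tested genes that the study names as silenced or as markers of the CpG island methylator phenotype, SOCS1 was higher with siUHRF1-2 (-0.48). This was 12.5% of the list, against 7.66% of all genes.

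The remaining lists had 4 calls or fewer each. Of 33 interferon response genes, 2 were higher with each siRNA (6.06%, against 4.96% and 7.66% of all genes). Among them were PSMB9 (0.41), a subunit of the immunoproteasome, with siUHRF1-1, and EIF2AK2 (-0.33) and IFI44 (-0.69) with siUHRF1-2. IL18 (0.76) was the call among 19 cytokine and NF-kB genes, EDEM1 (0.74), which takes part in the disposal of misfolded glycoproteins, among 30 genes of the ATF4 and unfolded protein response, and HSF1 (-0.36) among 20 heat shock genes. These calls were 5.26%, 3.33% and 5% of their lists. The dimmer HSF1 probes (-0.24 and -0.31) did not pass the test. None of 12 metallothioneins and none of 7 intestinal markers passed the test. Of 11 tested markers of other cell types, CD68, a macrophage marker that lysosomes of many cells carry, was higher with siUHRF1-1 (1.19) and COL1A1 with siUHRF1-2. Each was 9.09% of the list. The mean level of the 19 markers of other cell types was -4.87 with siUHRF1-1 and -4.67 with siUHRF1-2 without TSA, and -3.77 and -3.97 with TSA, and their part in the differences was not tested.

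**Figure D5:**
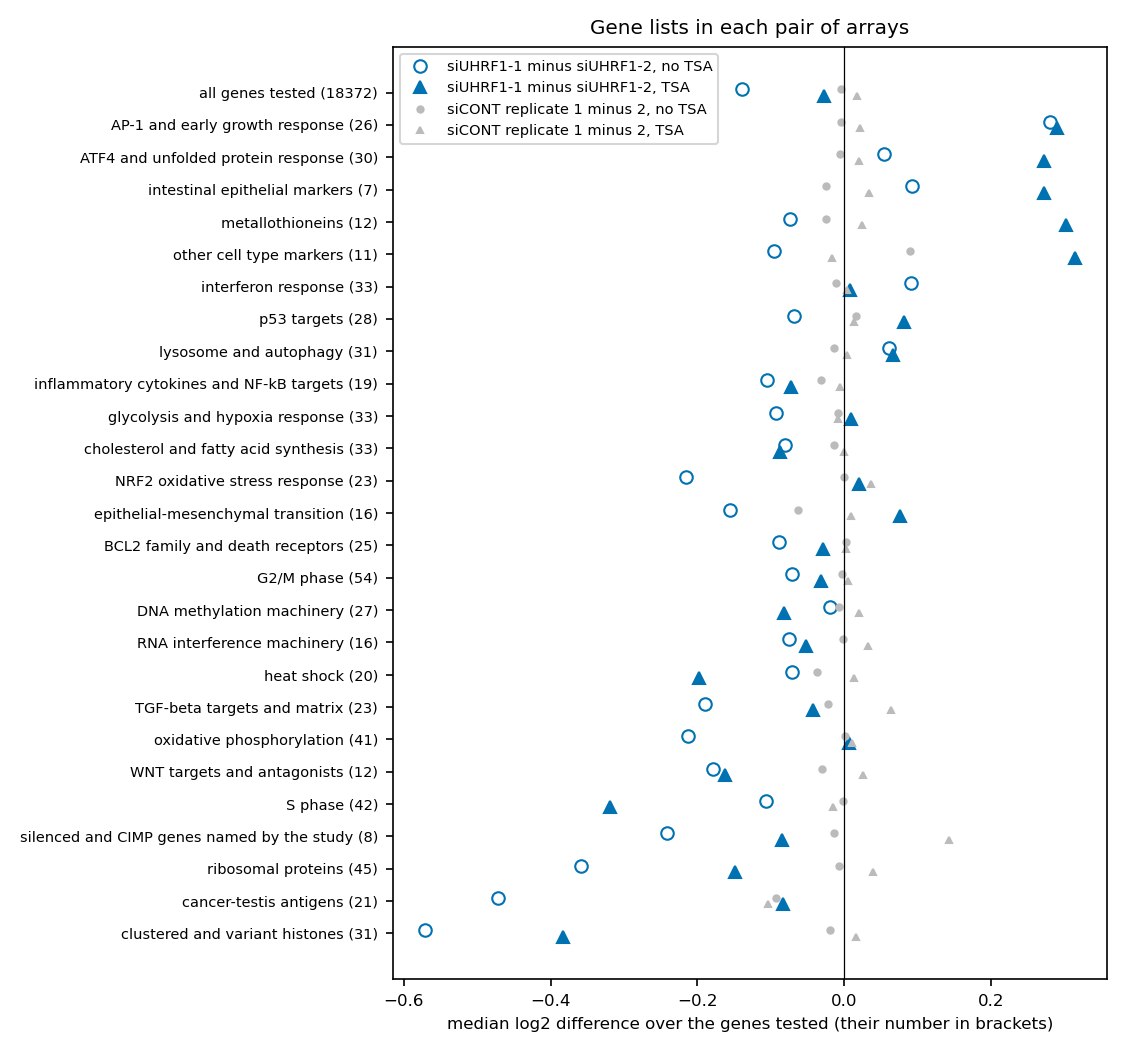
Median log2 difference over the genes tested in each list (their number in brackets) between the siRNAs (blue) and between the siCONT replicates (grey), without TSA (circles) and with TSA (triangles). Histones lie furthest to the left at -0.57 and -0.38 and the AP-1 genes to the right at 0.28 and 0.29, against -0.14 and -0.03 for all genes.

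Whether the siRNA difference itself changed with TSA was tested with the spread of the siCONT replicates alone, on 2 residual degrees of freedom. It passed the threshold at 1 probe, for SNX6, and 5086 probes had an unadjusted p below 0.05. Of the genes with the lowest p, ZNF763, a zinc finger gene, read between 2.08 and 2.29 on siCONT and with siUHRF1-1, and 1.12 without TSA and -1.16 with TSA with siUHRF1-2. APAF1, the scaffold of the apoptosome, read 7.84 on the siUHRF1-1 array with TSA and between -2.79 and -2.45 on the other 7 arrays, and GFRA4 read -0.28 on that array and between -6.22 and -3.33 on the others. These differences did not pass the adjusted threshold, and those of APAF1 and GFRA4 rest on 1 array.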

How the data were processed

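Expression was measured on 1-colour Agilent SurePrint G3 human arrays. The deposited intensity columns came from Feature Extraction (10.7.3.1 per the file headers), in which the authors' scanner software had subtracted background; no spot was saturated. The array with 5-aza-dC was not used. The deposited value table held the same signals on each array and served as an alternative.

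From the deposited intensity, log2 processed signals minus the 75th percentile of each array were computed over non-control probes (50599, of which 28174 matched a RefSeq accession), outlier spots were left out, with 54 values filled, and spots of a probe were averaged. Probes well above background on at least 2 of 8 arrays were tested with limma 3.58.1 in R 4.3.3, with terms for TSA and siRNA and 3 residual degrees of freedom, at a Benjamini-Hochberg adjusted p below 0.05. On simulated data with 200 of 24466 probes moved by 1.5, 173 were recovered and 8 were false. The simulated errors were independent and normal with the fit's own variances, so its assumptions held by design. Of the 2963 real calls, 258 exceeded 2-fold in mean, so the simulated counts give no rate for the real calls.

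Named genes were UHRF1, the 10 called genes with the largest difference in each direction that were above background on all 4 siUHRF1 arrays, up to 5 lower bounds in each direction, up to 3 called members of lowest p in each list, and the 3 lowest p for the difference between pairs. A lower bound set the bright siRNA against the higher, on each array, of the lowest signal well above background and the dim signal. Other list members, JUN, FOSB, DNMT1, DNMT3B and SNX6 were chosen after their values were seen. Members and lists were chosen with earlier results of these data known. Alternatives covered background correction, scaling, filters, outlier spots, the prior, the test, pairing and leaving out each array. The number of arrays limits the precision. Some genes, called members of lists among them, are not reported here by name.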

Additional observations from a re-analysis of the deposited data

Results flagged for a closer look

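SNX6, which encodes a sorting nexin of endosomal retrieval, had a difference between siUHRF1-1 and siUHRF1-2 that was not the same without and with TSA, at the probe at chr14:35032036-35032095 (hg19). It read 9.43 on the siUHRF1-2 array without TSA and between 1.55 and 1.80 on the other 7 arrays. The siRNA difference with TSA minus that without TSA was 7.53 ± 0.10 (SE, limma adjusted p = 0.0404), and it rests on 1 array. Other SNX6 probes did not pass the test.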

How the results depend on the processing

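The call between siUHRF1-1 and siUHRF1-2 (2963 probes) depended on the siCONT arrays. Leaving out each array in turn gave 0 to 4055 calls, with 0 without any siCONT array, 305 without either siUHRF1 array lacking TSA and 4055 without either siUHRF1 array with TSA. No label says that the siCONT numbers pair the cultures, although same-numbered arrays shared a slide column. The deviations of same-numbered arrays correlated with r = 0.05. With the numbers as a replicate block 0 probes were called. Of 88 called genes named from the rule all lost the call, at adjusted p of 0.0818 to 0.114. The 4 siUHRF1 arrays alone and the methods' t-test after Benjamini-Hochberg adjustment also gave 0 (2156 unadjusted), as did no filter on dim probes. Other settings gave 10 (normexp), 4586 (above background on all 8 arrays), 6163 (trended and robust prior), 6354 (spread of siCONT replicates only) and 8480 (unadjusted), and 2761 to 3081 under the other scalings, with outlier spots kept and from the value table.

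For siUHRF1-1 against siCONT (3061) the counts were 42 with normexp, 2018 with spike-in scaling, 628 with no filter, 6006 with the trended prior, 8343 unadjusted and 476 to 5795 with an array left out. For siUHRF1-2 against siCONT (3844) they were 128, 2223, 1277, 6040, 8205 and 809 to 5728 in the same order. For the difference between pairs (1) they were 2, 0, 4, 3186, 5086 and 0 to 0, and 2 for probes above background on all 8 arrays. Between siCONT replicates (0) they were 63 with normexp, 1 with spike-in scaling, 1 for probes above background on all 8 arrays, 13 with the trended prior, 867 unadjusted and 0 to 14 with an array left out.

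Differences over 2-fold in both pairs (209 between siRNAs and 52 between siCONT replicates) numbered 35 and 10 with normexp, 702 and 327 with no filter, 89 and 9 above background on all 8 arrays, 1113 and 224 over 1.5-fold, and 40 and 9 over 3-fold.

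Signs turned for the dimmer UHRF1 probe (-0.035 with normexp), SOHLH2 (-0.005 with normexp), GAPDH (0.053 after quantile normalization and 0.142 with spike-in scaling, against -0.15) and ACTB (0 and 0.069 in the same order, against -0.22). With a siUHRF1 array left out, the difference ranged from -0.186 to 0.415 for the dimmer UHRF1 probe, from -0.177 to 10.444 for APAF1 and from -0.968 to 3.053 for GFRA4, with the negative value whenever an array with TSA was left out. The cause was not tested, except that such a fit holds only the remaining pair of arrays.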
